A study of Mus musculus with 2 samples.

Results

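The miR-26 family of the mouse is encoded by 3 genes, Mir26b, Mir26a-1 and Mir26a-2, which were selected by name among the 1973 miRNA gene rows of each deposited table. All 3 had a row, and all 3 were counted in both libraries. The libraries hold small RNA (size range under 30 bases, per the labels) from B6NCrl mouse embryos at day 14.5. The labels name the tissue embryonic facial prominence and describe it as the cranioface. There was 1 group of 2 libraries, numbered in the labels as biological replicates, with no genotype, treatment or other stage to compare. Both carry the same donor record, so each SD over n = 2 measures the spread between these libraries, whose independence the labels leave unclear. The labels call each sample the face of 1 pup, taken on different collection days, but give the sex as male and female pooled, so it is not settled if 1 embryo or several went into each library, and the spread between the replicates includes the collection day.

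A miRNA guides Argonaute proteins to messenger RNAs that pair with its seed, bases 2 to 8 from its 5′ end. The miR-26 miRNAs are processed from introns of the Ctdsp genes, which encode small phosphatases that act on the carboxy-terminal domain of RNA polymerase II. These phosphatases take part with the repressor REST in keeping neuronal genes silent outside neurons, and with the retinoblastoma protein in holding back entry into S phase. Members of the family are known to repress Ezh2, the histone methyltransferase of the Polycomb repressive complex, in mouse muscle cells, and in zebrafish miR-26b represses its own host transcript ctdsp2 during neurogenesis. None of these targets was measured in the libraries.

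The sequences of the 3 hairpins (RefSeq, build GRCm38.p6, all on the plus strand) are shown because they decide which reads can be given to 1 gene. Capitals mark the mature 5p arm.
Mir26b, chr1:74394310-74394394: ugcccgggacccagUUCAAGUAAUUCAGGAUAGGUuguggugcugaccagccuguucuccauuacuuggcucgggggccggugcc
Mir26a-1, chr9:119031796-119031885: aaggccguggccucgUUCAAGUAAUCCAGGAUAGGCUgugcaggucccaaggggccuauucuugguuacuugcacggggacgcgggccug
Mir26a-2, chr10:126995530-126995613: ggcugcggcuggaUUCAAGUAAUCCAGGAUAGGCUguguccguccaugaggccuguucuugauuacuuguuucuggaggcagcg

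The mature miRNAs of both arms follow, with the seed in capitals. The 5p arms of all 3 genes share 1 seed, and no other gene of the 1738 mature entries in the RefSeq table carries it.
mmu-miR-26b-5p: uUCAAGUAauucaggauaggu
mmu-miR-26a-5p: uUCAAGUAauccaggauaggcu
mmu-miR-26b-3p: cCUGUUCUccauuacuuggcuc
mmu-miR-26a-2-3p: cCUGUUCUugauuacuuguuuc
mmu-miR-26a-1-3p: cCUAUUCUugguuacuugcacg

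Mir26a-1 and Mir26a-2 give the same 22-base 5p miRNA. Relative to miR-26a-5p, with positions counted from 1 at its 5′ end, miR-26b-5p has the changes C11U and C21U over the 21 bases compared, both outside the seed. The 3p arms differ more. Mir26b and Mir26a-2 share a 3p seed and are identical at 18 of 22 bases, while the 3p arm of Mir26a-1 matches that of Mir26a-2 at 16 of 22 bases, with A4G inside the seed.

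The Mir26a hairpins share an unbroken stretch of 25 bases, uucaaguaauccaggauaggcugug, which holds the whole 5p arm. A read that lies within this stretch has the same sequence at either locus. Mir26b shares at most 11 bases in a row with any other of the table's 1005 hairpins, and all 64 of its 22-base windows occur in no other hairpin. Of the 22-base windows of Mir26a-1, 4 of 69 recur in Mir26a-2, and these 4 all touch the 5p arm. The deposited tables keep reads placed at several positions in a summary row apart from the genes, and they do not separate the arms of a hairpin. The count of each Mir26a gene therefore leaves out reads confined to the shared stretch, which for Mir26b has no counterpart in this table. The rest of the genome was not searched.

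The hosts were paralogous and the hairpins lay in the corresponding intron of each (GENCODE M21, build mm10). Mir26b lies in intron 4 of Ctdsp1 (chr1:74394076-74394639), Mir26a-1 in intron 5 of Ctdspl (chr9:119030253-119033535) and Mir26a-2 in intron 5 of Ctdsp2 (chr10:126993909-126995854), each on the strand of its host. In all 3 hosts the exon before that intron has 57 bases and the exon after it 93 bases. The 93-base exons were identical at 83.9% of bases between Ctdsp1 and Ctdspl and at 81.7% in each of the other host pairs, and the 57-base exons at 66.7% to 77.2%. The introns themselves differ in length: 564 bases in Ctdsp1, 1946 in Ctdsp2 and 3283 in Ctdspl.

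The hairpin sits 234 bases after the upstream exon in Ctdsp1, 1621 in Ctdsp2 and 1543 in Ctdspl. It ends 245 bases before the downstream exon in Ctdsp1, 241 in Ctdsp2 and 1650 in Ctdspl. The Mir26a-2 hairpin overlaps an exon by 1 base in 2 of the 4 annotated Ctdsp2 transcripts, so 1 base of it is exonic in those. Neither of the other hairpins overlaps an exon of its host.

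**Figure D1:**
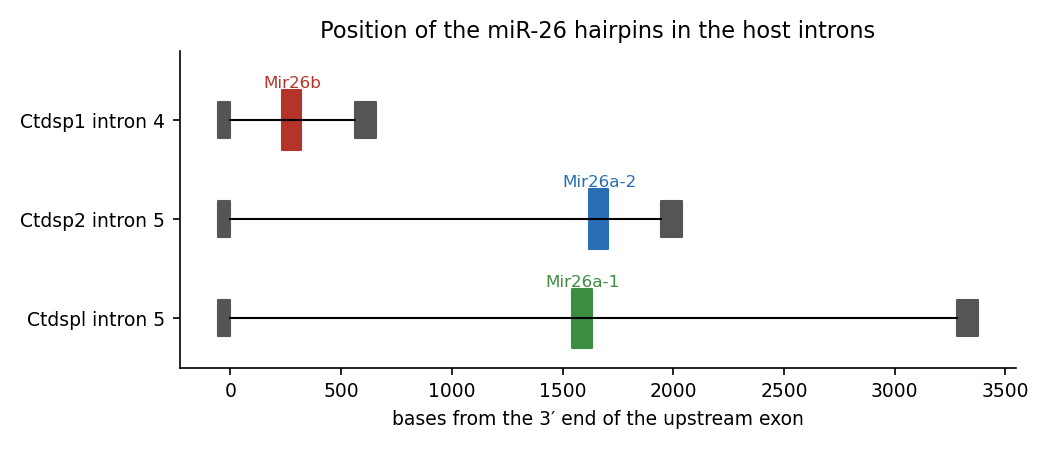
Position of each miR-26 hairpin (coloured) in its host intron (line) between the flanking exons (grey), in bases from the 3′ end of the upstream exon and to scale. Mir26b sits in the middle of a 564-base intron, Mir26a-2 lies 241 bases from the downstream exon, and Mir26a-1 lies near the middle of a 3283-base intron.

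Gene-strand miRNA counts totalled 2719153 in replicate 1 and 6602050 in replicate 2, and levels are given as CPM, counts per 1000000 of these totals. Reads placed at several positions numbered 1672840 in replicate 1, or 29.8% of its reads, and 3812416 in replicate 2, or 28.5%, and enter no gene. Markers of the tissues of the face were present: epithelial miRNAs summed to 52450 CPM in replicate 1 and 67435 CPM in replicate 2, mesenchymal ones to 17643 and 12119 CPM, cartilage ones to 43454 and 41703 CPM, and Mir126a of endothelium stood at 41674 and 54165 CPM. Every mature sequence of the mesenchymal genes Mir199a-1, Mir199a-2 and Mir199b recurs at another locus in the RefSeq table. Reads of theirs placed at several positions are missing from the mesenchymal sum, so it is not comparable with the sums of the other tissues. Skeletal muscle markers summed to 11714 and 13349 CPM, smooth muscle markers to 18130 and 16278 CPM, and blood markers to 1614 and 2096 CPM. Liver Mir122 stood at 12.5 and 5.60 CPM, and the nervous tissue list summed to 743 and 528 CPM, mostly Mir137. Mir9-2 and the 3 Mir124a genes of that list had no count, but their copies are known to share mature sequences, so these zeros set no limit on the miRNAs. The tissue is a mixture, and more cells with a miRNA cannot be told apart from more of it per cell.

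Mir26b was among the most counted miRNA genes of the face, and the Mir26a genes were counted rarely. Mir26b (ENSMUSG00000065468.1) had 58102 counts in replicate 1 and 136817 in replicate 2, or 21368 CPM (exact 95% interval 21196 to 21540) and 20723 CPM (20615 to 20832). Its mean was 21046 ± 456 CPM (SD, n = 2), 2.14% of all gene-strand miRNA counts in replicate 1 and 2.07% in replicate 2. It ranked 14th by mean level, 12th in replicate 1 and 15th in replicate 2. Scaled to all reads placed on the genome in place of miRNA counts, its level would be 12402, that of Mir26a-2 33.0 and that of Mir26a-1 7.00, with the order kept.

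Mir26a-2 (ENSMUSG00000065430.1) had 161 counts in replicate 1 and 349 in replicate 2, or 59.2 CPM (exact 95% interval 50.4 to 69.1) and 52.9 CPM (47.5 to 58.7). Its mean was 56.0 ± 4.49 CPM, at rank 225. Mir26a-1 (ENSMUSG00000065513.1) had 35 and 72 counts, or 12.9 CPM (8.97 to 17.9) and 10.9 CPM (8.53 to 13.7), with a mean of 11.9 ± 1.39 CPM at rank 285. Both Mir26a genes lay above the limit that a count of 0 allows, 1.10 CPM in replicate 1 and 0.454 CPM in replicate 2, and the counting intervals of the replicates overlapped for each. The opposite-strand column held 0 reads at all 3 genes in both libraries. The intervals and limits cover counting error only.

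**Figure D2:**
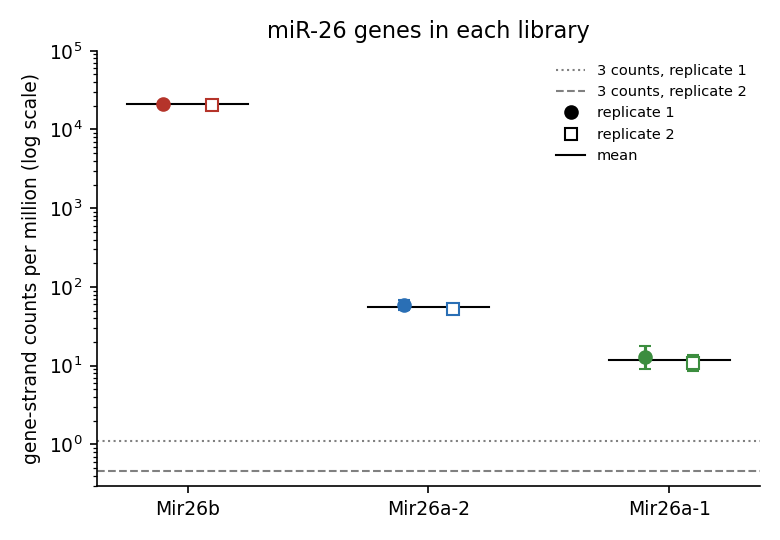
Gene-strand CPM of the miR-26 genes on a log scale, with replicate 1 as filled circles, replicate 2 as open squares, exact 95% counting intervals as bars, the mean as a line, and the level of 3 counts in each library as grey lines. The replicates lie close together in each gene, and the genes fall at about 21046, 56.0 and 11.9 CPM.

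The order of the 3 genes was the same in both libraries and no gene's range reached that of another. Mir26b had 361 times the counts of Mir26a-2 in replicate 1 (counting interval 309 to 424) and 392 times in replicate 2 (353 to 437). Against Mir26a-1 the ratio was 1660 in replicate 1 (1193 to 2384) and 1900 in replicate 2 (1509 to 2429). Of the 58298 and 137238 miR-26 counts, 99.66% in replicate 1 (exact 95% interval 99.61 to 99.71) and 99.69% in replicate 2 (99.66 to 99.72) were at Mir26b. The shares of the replicates did not differ beyond counting error (two-sided Fisher's exact test on counts, p = 0.290). These ratios compare counted reads and not the miRNAs, because reads of miR-26a-5p within the shared stretch are not in them.

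How many of the reads at several positions were miR-26a-5p was not measured. A number of reads equal to the Mir26b count would make up 3.47% of them in replicate 1 and 3.59% in replicate 2. The order of miR-26b-5p and miR-26a-5p in this tissue therefore cannot be read from these tables.

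Within the pair that shares its 5p arm, Mir26a-2 was counted more often than Mir26a-1. The ratio of Mir26a-2 to Mir26a-1 was 4.60 in replicate 1 (counting interval 3.18 to 6.83) and 4.85 in replicate 2 (3.75 to 6.34), and the inverse, Mir26a-1 over Mir26a-2, averaged 0.212 ± 0.0078 (SD, n = 2). The ratio did not differ between the libraries beyond counting error (two-sided Fisher's exact test on counts, p = 0.820). It rests on reads that do not lie wholly within the shared 25 bases, and which arm these came from is not known.

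The Mir26a pair was set beside the other miRNAs encoded at exactly 2 loci that share a mature sequence in the RefSeq table. With the Mir26a pair included, there were 16 such pairs in which each gene had a mean of at least 10 counts. Over these 16 the copy with the higher mean level exceeded the other by a median of 3.51 times. The Mir26a pair, at a mean ratio of 4.72 ± 0.17, held place 5 of 16. The widest ratios were 35.3 for Mir181b-2 over Mir181b-1 and 28.9 for Mir92-1 over Mir92-2, and the narrowest was 1.05 ± 0.19 for Mir128-1 over Mir128-2, whose order turned between the libraries, at 1.18 in replicate 1 and 0.909 in replicate 2. The copies of miR-103, which also lie in introns of paralogous genes, Pank2 and Pank3, stood at 61.4 ± 23.9 CPM (Mir103-2) and 6.96 ± 2.13 CPM (Mir103-1), levels close to those of the Mir26a pair. Their relative Mir107 in Pank1, whose mature sequences recur at no other locus of that table, stood at 1036 ± 311 CPM.

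Of the 916 genes matched to the RefSeq table by symbol, 53 form 1 class. They have 1 mature sequence that recurs at another locus of the table and 1 that does not, as the Mir26a genes do. In this class 47 genes had a count, with a median of 43.7 CPM. Mir26a-2 lay just above that median, with 19 of the class above it. Mir26a-1 lay well below the median, with 30 above it, and 0 of the 53 reached the level of Mir26b. In the class of Mir26b no mature sequence recurs at another locus of the table, and a recurrence the table does not list would be missed. In it 558 of 829 genes had a count, with a median of 2.87 CPM, and 13 stood above Mir26b. That class also holds many genes with few reads. The remaining class, in which every mature sequence recurs, had counts at 8 of 34 genes, with a median of 32.4 CPM.

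**Figure D3:**
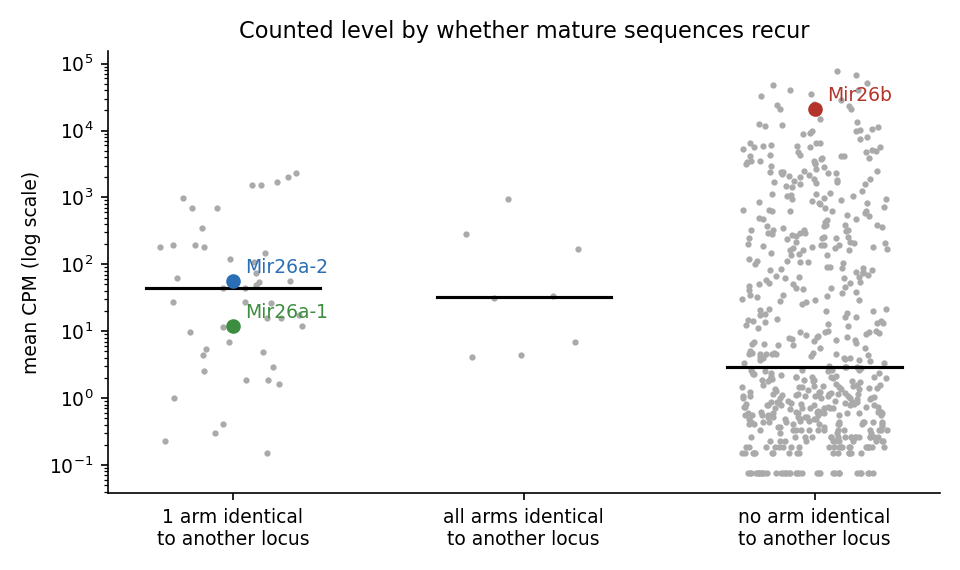
Mean CPM (log scale) of miRNA genes with a count, grouped by whether their mature sequences are identical to one at another locus of the RefSeq table. Each gene is a point and the class median is a line. Mir26a-2 lies just above the median of 43.7 CPM of its class and Mir26a-1, at 11.9 CPM, well below it, and Mir26b lies near the top of the class with no recurring sequence.

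Mir26b held a place among miRNA genes of varied origin. The next genes above it by mean level were Mir487b (21350 ± 3343 CPM), Mir100 (22975 ± 2237 CPM), Mir411 (24405 ± 1935 CPM), Mir130a (25247 ± 2260 CPM) and Mir203 (28346 ± 10257 CPM). The next below were Mir23a (19301 ± 2878 CPM), Mir99b (18003 ± 2155 CPM), Mir143 (16808 ± 1322 CPM), Mir30e (14976 ± 3279 CPM) and Mir214 (13601 ± 3584 CPM). The replicate values of Mir487b, Mir23a and Mir203 overlapped the range of Mir26b, so Mir26b and these did not differ beyond their spread. Those of the other 7 neighbours did not overlap it, although Mir100, at 21393 CPM in replicate 1, lay just above the 21368 CPM of Mir26b in that library.

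The genes most like each member were ranked by the Euclidean distance of log2(CPM + 1) over the 2 libraries, which measures likeness of level and, over so few samples, little else. For Mir26b they were Mir100 (distance 0.24), Mir487b (0.26), Mir23a (0.31), Mir411 (0.33) and Mir130a (0.38). For Mir26a-2 they were Mir3099 (0.064), Mir92-2 (0.091), Mir33 (0.14), Mir877 (0.17) and Mir193b (0.17). For Mir26a-1 they were Mir218-1 (0.11), Mir1930 (0.18), Mir8114 (0.30), Mir1188 (0.32) and Mir378c (0.33). Mir218-1 and Mir92-2 are, like the Mir26a genes, copies whose main mature sequence recurs at another locus.

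**Figure D4:**
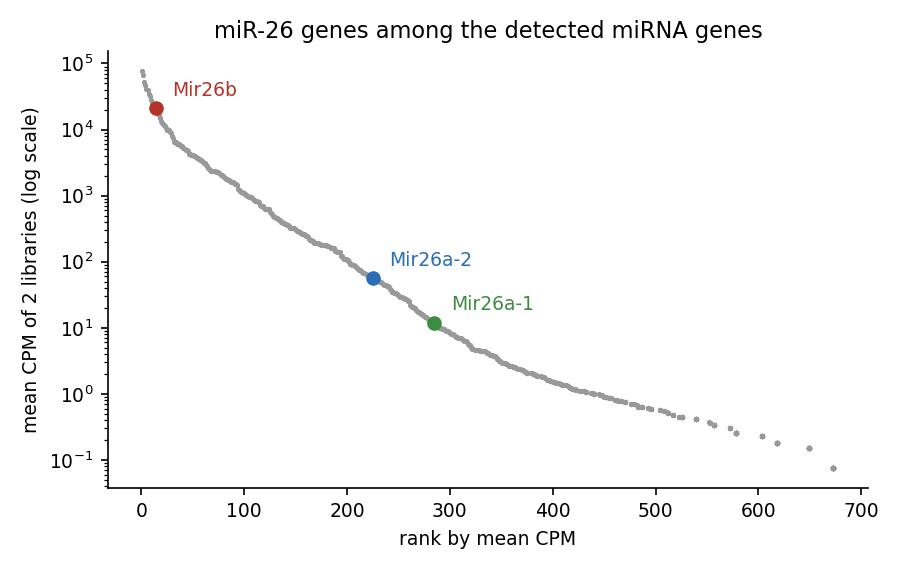
Mean CPM (log scale) of every detected miRNA gene against its rank, with the miR-26 genes coloured. Mir26b lies at rank 14 on the steep upper part, Mir26a-2 at rank 225 and Mir26a-1 at rank 285.

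By annotation, 720 of the miRNA gene rows lie in an intron of a protein-coding gene on the same strand, and 370 of these had a count. Mir26b was the sixth highest of them, with 5 genes above it, and made up 5.36% of their summed level. Mir26a-2 had 85 of these genes above it and Mir26a-1 had 111. A list of 22 intronic miRNA genes was drawn up for hosts that regulate transcription or the cell cycle. In it Mir26b was second to Mir140 of the cartilage-active host Wwp2 (40087 ± 1018 CPM). Next came Mir30e in Nfyc, a subunit of a CCAAT-binding factor. Mir26a-2 was 17th and Mir26a-1 was 19th of the 22. Of the 22 genes, 8 have a mature sequence that recurs at another locus in the RefSeq table, and 1 could not be matched to it. Part of the reads of such genes is left out, so these places, and those among the 720, are of counted reads. The list also holds hosts outside these roles, such as the myosin gene Myh7, whose Mir208b stood at 244 ± 3.19 CPM.

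Mir26b was the most counted gene in a list of miRNAs reported to hold back passage from G1 to S phase. It made up 61.0% of the list's sum of 34480 ± 1542 CPM. Mir15a, which targets cyclins, followed at 4124 ± 101 CPM, and Mir449a, of a cluster in the gene Cdc20b, at 3338 ± 1420 CPM. All 16 members with a row were detected, and the lowest was Mir129-1 at 4.41 ± 1.04 CPM. Of the 16 genes, 6 have a mature sequence that recurs at another locus in the RefSeq table, and 1 could not be matched to it. Part of the reads of the 6 is left out of the sum. The mature sequences of Mir26b recur at no other locus of that table, but the rest of the genome was not searched. Its share is therefore one of counted reads. In a list of 24 miRNAs reported to target Ezh2, 21 had a row and 18 were detected. Mir26b ranked 3 in it, at 11.9% of a sum of 177295 ± 234 CPM. Above it were the let-7 genes Mirlet7i (78025 ± 7034 CPM) and Mirlet7g (40899 ± 4232 CPM), and below it Mir214 and Mirlet7d (9686 ± 261 CPM). Mir101a, of another miRNA known for repression of Ezh2, stood at 138 ± 40.3 CPM and Mir101b at 1598 ± 351 CPM. In this list 8 of the 21 have a recurring mature sequence in the table and the 3 Mir124a genes could not be matched to it, so the share of Mir26b is one of counted reads here too.

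The seed match of miR-26 was looked for in the 3′ UTRs of the 3 hosts and of Ezh2 (GENCODE M21, for each gene the coding transcript with the longest 3′ UTR, message strand only). The 7-base match was TACTTGA and the 8-base match TACTTGAA, which contains it. Ctdsp2 held the 7-base match once, and Ezh2 held the 8-base match once. No match was found in the 3′ UTR of Ctdsp1 or of Ctdspl. The sites are shown with the match in capitals.
Ctdsp2, chr10:126997555-126997573, plus strand: agtgttgctctTACTTGAt
Ezh2, chr6:47530286-47530304, minus strand: tgaataaagaaTACTTGAA

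Of the 3′ UTRs 0.8 to 1.25 times as long as that of Ctdsp2 (3489 bases), 23.6% hold the 7-base match, and of those as long as that of Ezh2 (402 bases) 1.22% hold the 8-base match. A match in the letters is a description of the sequence, and its use in the face was not measured.

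The replicates were compared gene by gene with an exact two-sided binomial test, replicate 1 over replicate 2, on library sizes scaled by TMM (trimmed mean of M values). With 1 library a side this compares libraries and not conditions. Over the 372 genes with a mean of at least 10 counts, 194 (52.2%) differed at a Benjamini-Hochberg adjusted p below 0.05, 92 (24.7%) higher and 102 (27.4%) lower in replicate 1. Mir26b was one of those called. Its log2 ratio was -0.081 with a counting SE of 0.0071 (exact binomial test, adjusted p = 1.62e-29), a 1.06-fold difference.

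The direction of Mir26b was set by the scaling. On the CPM scale, which uses total counts, replicate 1 was higher than replicate 2, at a log2 ratio of 0.044 (exact binomial test, adjusted p = 2.48e-09), since TMM lowers every ratio by 0.126. Total counts called 133 genes (35.8%) higher and 64 (17.2%) lower in replicate 1, Mir26b among the higher. The Mir26a genes were not called: the log2 ratio was 0.11 with a counting SE of 0.30 for Mir26a-1 (exact binomial test, adjusted p = 0.788) and 0.038 with a counting SE of 0.14 for Mir26a-2 (exact binomial test, adjusted p = 0.881). At their depth a difference as small as that of Mir26b would not be detectable. A smaller absolute log2 ratio than that of Mir26b was found in 17.7% of the tested genes, than that of Mir26a-1 in 23.4% and than that of Mir26a-2 in 8.06%, and the median absolute ratio over all was 0.24.

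**Figure D5:**
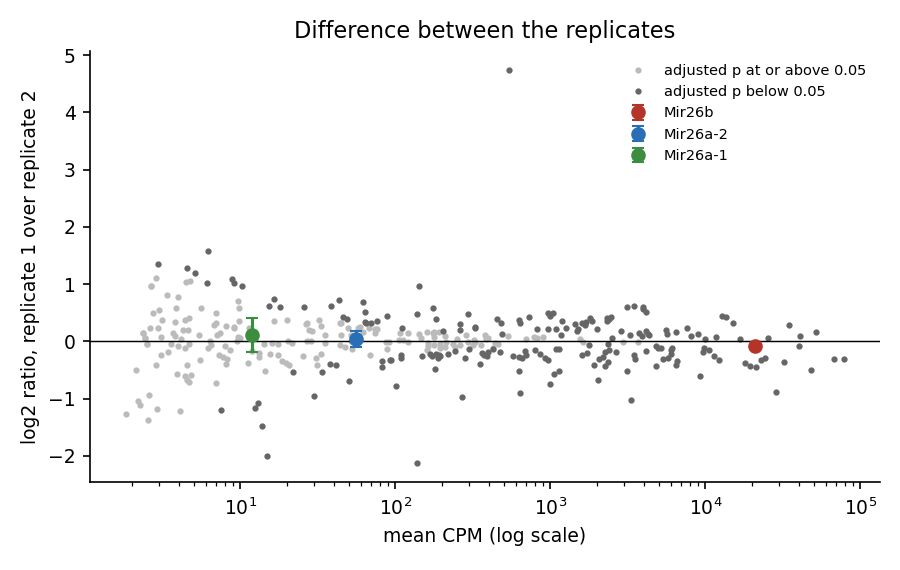
Log2 ratio, replicate 1 over replicate 2 on TMM-scaled libraries, against mean CPM (log scale) for the 372 tested genes, dark where the adjusted p is below 0.05, with the miR-26 genes coloured and their counting SE as bars. All 3 miR-26 genes lie close to 0, at -0.081, 0.038 and 0.11.

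The spread between the replicates also depended on the scaling. The coefficient of variation of Mir26b on the CPM scale was 2.16%, against a median of 12.0% over the 102 genes that averaged 1000 CPM or more, of which 9 had a lower one. It was 3.99% with TMM sizes, with 13 of the 102 lower, and 6.80% with DESeq2 size factors, with 28 lower. Using these sizes for the coefficient of variation was a choice made after seeing the data. On the CPM scale that of Mir26a-2 was 8.01% and that of Mir26a-1 was 11.7%, against a median of 13.0% over all tested genes, with TMM sizes they were 1.87% and 5.56%, and with DESeq2 size factors 0.954% and 2.75%. With n = 2 each of these values is itself imprecise. The lists, which hold the miR-26 genes too, are described against the 52.2% called over all tested genes, with no test of a difference. Of the 16 G1 to S genes tested 10 (62.5%) were called, 0 higher and 10 lower in replicate 1, with a median log2 ratio of -0.26 against 0.0022 over all tested genes, and with total counts 2 were higher and 7 lower. The 10 include Mir26b and the 3 Mir449 genes, led in counts by Mir449a at -1.02. Of the 18 tested genes of the Ezh2 list 15 (83.3%) were called, 5 higher and 10 lower, with a median of -0.13. The 3 not called, Mir138-2, Mir26a-2 and Mir26a-1, had the fewest counts of the 18. The test covers counting error only, so it calls genes with more counts more easily, and the shares of lists of unlike depth are not comparable. Of the 22 intronic genes with listed hosts 12 (54.5%) were called, near the share over all, 5 higher and 7 lower, with a median of 0.079. With total counts these were 7 higher and 5 lower, and 12 higher and 3 lower.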

How the data were processed

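The deposited values are raw counts per miRNA gene, 1 library per file, aligned to mm10 and counted over GENCODE M4, per the deposited metadata text and the labels. The aligner, its settings and the trimming: not given in the sources used here. The authors' tables have no column names; in every gene row the counts of columns 3 and 4 sum to column 2, which is the layout of both strands, gene strand and opposite strand, and column 3 was used. The 4 summary rows, 51.6% and 50.7% of reads in replicates 1 and 2, were left out of totals.

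Of 1973 gene identifiers 1894 matched a GENCODE M21 symbol. CPM used the gene-strand totals. TMM sizes and the dispersion came from edgeR 4.0.16 on genes with a mean of at least 10 counts, and exact tests from scipy 1.17.1, with adjustment over all tested genes and a prior of 0.5 counts for log2 ratios. The biological coefficient of variation was 20.9%, so counting error understates the spread. A count of 0 allows up to 3 counts. The test was tried on simulated counts. DESeq2 1.42.0 size factors, total counts, other filters, columns, priors and thinning were alternatives. Named genes are the members, the 5 nearest in level or likeness, and the 2 highest of each list; any other was picked with its values in view. The members and lists were chosen with earlier results of these data known.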

Additional observations from a re-analysis of the deposited data

How the results depend on the processing

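The levels of Mir26b and of the family sum moved by more than the SD of the replicates under most denominators, though not with TMM sizes. That of Mir26a-1 moved so far only with reads placed on the genome as the denominator. Scaled to the reads placed on the genome, Mir26b stood at 12402, Mir26a-1 at 7.00, Mir26a-2 at 33.0 and the family sum, 21113 ± 461 CPM as reported, at 12442. With DESeq2 size factors Mir26b stood at 19153, Mir26a-2 at 50.9 and the sum at 19214, and without the highest gene in the total at 22825, 60.8 and 22899. With both strands counted Mir26b stood at 20129 and the sum at 20194. The log2 ratio of Mir26b between the replicates turned to 0.044 with total counts, and that of Mir26a-2 to -0.019 with DESeq2 size factors (exact binomial test, adjusted p = 0.966). With total counts the ratio of Mir26a-2 was 0.16 and that of Mir26a-1 0.24, and with the deeper library thinned that of Mir26a-1 was 0.47, none of them called. TMM-scaled levels moved by less than 1 SD. The number of genes called ranged from 178 to 204, against 194. Mir26a-1 has no value at a mean of at least 100 counts. Leaving out a replicate leaves 1 library, so the replicate test has no value then; the levels are those of the other library. No paired analysis was possible because there is 1 group. Depth limits Mir26a-1 most, at 35 and 72 counts.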
